A study of Homo sapiens with 12 samples.

Results

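Transcripts of 32 genes that make cholesterol and fatty acids were followed through a Halo-tag purification from HEK293T cells. The genes were taken by symbol from the deposited table, which lists 25369 genes. All 32 were found. They comprise 7 genes of the mevalonate steps, 11 of the steps between squalene and cholesterol, 6 of the SREBP system and sterol transfer, and 8 of fatty acid synthesis. All 32 were among the 14627 genes tested, that is, at 10 or more normalized counts in 3 libraries or more.

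HEK293T is an established transfectable line from human embryonic kidney, although the growth conditions in the labels name HEK293. The 4 groups held 3 RNA sequencing libraries each. TNIP2 Pulldown and TNIP2 Input are the purified material and the whole extract of cells transfected to make residues 196 to 346 of TNIP2 joined to the Halo tag. Control Pulldown and Control Input are the same fractions of cells transfected to make only the Halo tag. The Halo tag is a protein tag that binds its resin covalently, and TNIP2 is an adaptor that binds ubiquitin chains and restrains NF-kB signalling. The groups therefore report on a fragment made from a plasmid, not on the whole endogenous protein, and every library comes from transfected cells of 1 line. Ribosomal RNA was removed from all samples, per the labels. Nothing in the labels says that replicates were separate cultures, so a p-value here rests on the spread among the libraries, part or all of which may be technical.

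Cholesterol is built from acetyl-CoA through mevalonate, isoprenoid diphosphates, squalene and lanosterol, by enzymes that sit partly in the cytosol and partly in the membrane of the endoplasmic reticulum. Transcription of most of these genes is driven by the SREBP proteins, which are held in that membrane by SCAP and INSIG while sterol is plentiful and are cut free when it is scarce. SREBP proteins also drive the genes that turn citrate and acetate into long and unsaturated fatty acids. Dividing cells in culture use both pathways to make membranes.

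The TNIP2 transcript itself was read first as a check of the labels. It had 51905, 69806 and 193013 normalized counts in TNIP2 Pulldown, 16750, 13318 and 46568 in TNIP2 Input, 1472, 309 and 391 in Control Pulldown and 278, 304 and 272 in Control Input. All 6 libraries labelled TNIP2 were above all 6 labelled Control. Recovered depth was 10311302 to 29525570 reads in TNIP2 Pulldown, 8901660 to 16754596 in TNIP2 Input, 3591308 to 6404782 in Control Pulldown and 13794036 to 20779660 in Control Input. The fewest reads behind any value of the 32 genes were 37, for PMVK in TNIP2 Pulldown 1. TNIP2 Pulldown 3 and TNIP2 Input 3 stood apart on the second principal component, at -47.8 and -54.7, against -2.84 to 25.7 for the other 10. TNIP2 Input 3 held the lowest value of its group for 23 of the 32 genes. Summed over the HEK293 marker list of 7 genes, of which at most 1 was at 0 in a library, the normalized count was 9529 to 11275 in TNIP2 Pulldown, 4820 to 5740 in TNIP2 Input, 4718 to 5743 in Control Pulldown and 5522 to 5899 in Control Input. Its members did not move alike: NEFL had 4970, 5363 and 3484 in TNIP2 Pulldown, against 950, 968 and 456 in TNIP2 Input, while INA had 54, 57 and 126 in TNIP2 Pulldown, against 225, 200 and 350 in TNIP2 Input. The 6 blood markers summed to 32 to 111 in TNIP2 Pulldown, 26 to 44 in TNIP2 Input, 18 to 49 in Control Pulldown and 21 to 28 in Control Input, with CD3E and HBB at 0 in every library. The 8 fibroblast and endothelial markers summed to 128 to 146 in TNIP2 Pulldown, 87 to 123 in TNIP2 Input, 59 to 130 in Control Pulldown and 114 to 141 in Control Input, with CDH5 at 0 or 1. The 6 hepatocyte and adipocyte markers summed to 32 to 120 in TNIP2 Pulldown, 39 to 133 in TNIP2 Input, 41 to 66 in Control Pulldown and 53 to 59 in Control Input, with TTR at 0 or 1. The part of these values in the results was not tested.

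Together the 32 genes made up a smaller share of the RNA in TNIP2 Pulldown than in any other group. Their share of all normalized counts was 0.268%, 0.207% and 0.219% in TNIP2 Pulldown, against 0.535%, 0.499% and 0.396% in TNIP2 Input. It was 0.536%, 0.519% and 0.503% in Control Pulldown, against 0.539%, 0.513% and 0.472% in Control Input. No TNIP2 Pulldown library reached the lowest of the other 9. Their summed normalized count was 39107, 31186 and 27697 in TNIP2 Pulldown, against 56003, 50817 and 42519 in TNIP2 Input. The mevalonate genes had the tightest sums, at 2927 ± 146 in TNIP2 Pulldown, against 6833 ± 122 in TNIP2 Input, and 6674 ± 6 in Control Pulldown, against 7038 ± 45 in Control Input (SD, n = 3 each). The fatty acid genes summed to 15369 ± 2340 in TNIP2 Pulldown, against 18353 ± 3673 in TNIP2 Input, and these ranges overlapped. These are relative levels in the bulk RNA of each fraction. A lower value in purified RNA does not give the amount of a transcript that was captured. All normalized counts summed to 12639745 to 15074851 in TNIP2 Pulldown, against 10182326 to 10741368 in TNIP2 Input.

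**Figure D1:**
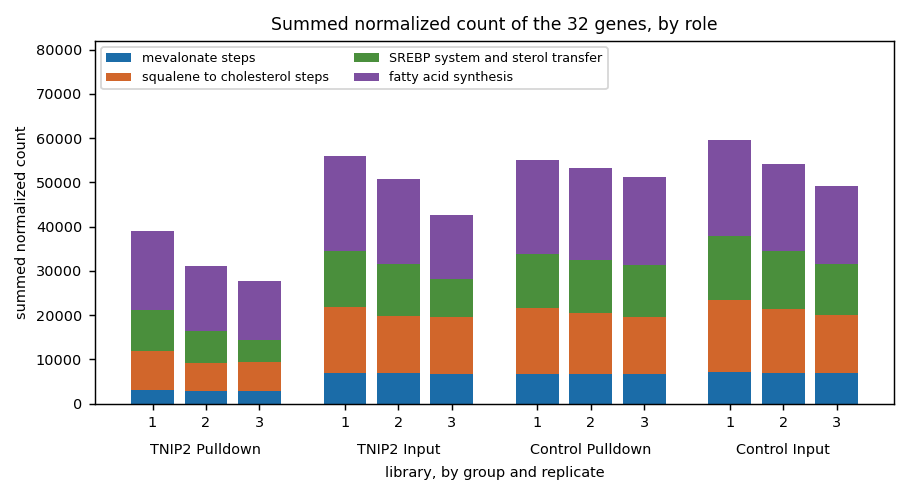
Summed normalized count of the 32 genes in each library, stacked by role. The 3 TNIP2 Pulldown bars reach 27697 to 39107, below the 42519 to 56003 of TNIP2 Input and below all Control libraries.

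Against its own extract, the TNIP2 fragment's purified RNA held less of 24 of the 32 genes and more of 2, while 6 did not pass the test. In all, 58.1% of genes tested were called. A gene is called here at an adjusted p under 0.05 in limma's moderated test on log2(normalized count + 1), adjusted over all 14627 genes. Of all genes tested, 28.3% were called lower and 29.8% higher in this comparison, so 75% of these genes were lower against a background of 28.3%. The 32 genes were chosen with earlier results of these data known, so this contrast is only a description. The shares of 28.3% and 29.8% are also the background for counts by role or list in this comparison. The median log2 fold change of the 32 was -0.96, against 0.01 for all genes tested. With a block within each construct, which takes same-numbered Pulldown and Input libraries of each construct as pairs, 27 were lower and 2 higher. For 13 of the 32 in the fit without a block, the call was for a fall of 2-fold or more, against 16.8% of all genes. All 3 Pulldown libraries lay below all 3 Input libraries for 21 of the 32, against 28.1% of all genes, and above them for 1, against 29.4%. The 2 higher genes were MSMO1 and ACLY. SREBF1, SREBF2, HSD17B7, ACACA, SCD and FADS2 did not pass.

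None of the 32 genes was called for the tag alone. Between Control Pulldown and Control Input, 0 of the 32 genes were called, against 0.137% of all genes tested (20 genes, all lower). None of the 32 had an unadjusted p under 0.05 in limma's test, and their median log2 fold change was -0.05, with a range of -0.32 to 0.63. Control Pulldown libraries lay below all Control Input libraries for 4 genes and above them for 3, against 7.15% and 5.83% of all genes. Control Pulldown holds the shallowest libraries of the series. The part of depth in this comparison was not tested.

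**Figure D2:**
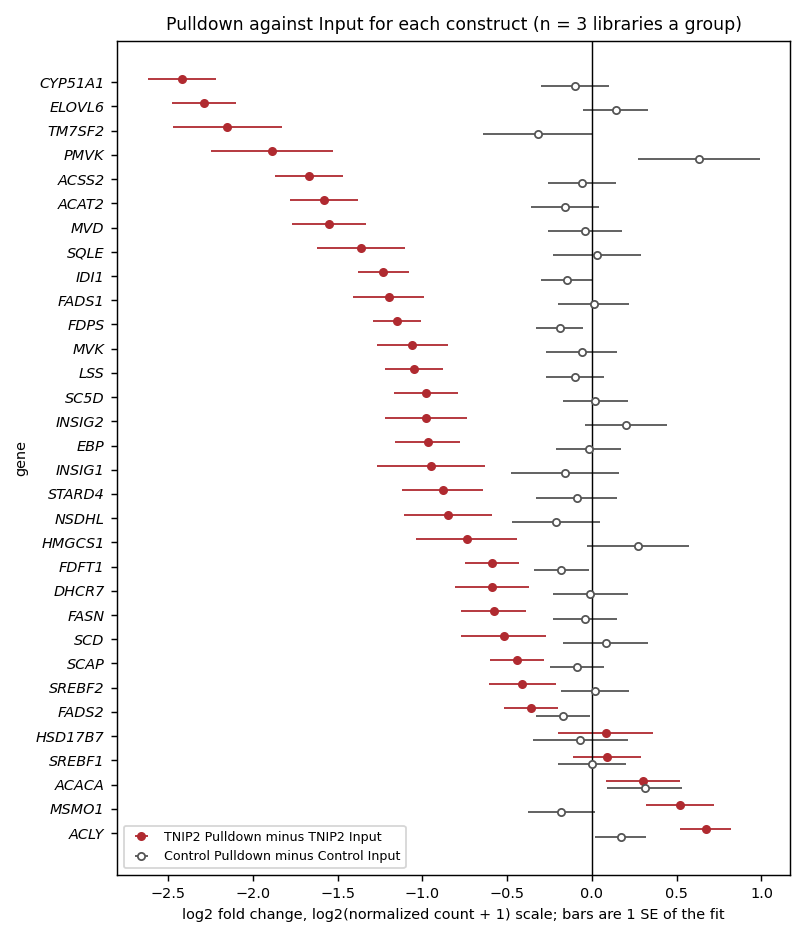
Log2 fold change of Pulldown over Input for each of the 32 genes (vertical axis), for the TNIP2 fragment and for the tag alone, with bars of 1 SE. Values for the TNIP2 fragment run between -2.42 (CYP51A1) and 0.67 (ACLY), and those for the tag alone between -0.32 and 0.63.

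Promoter sequences are shown for the 2 genes that fell furthest by log2 fold change (CYP51A1 and ELOVL6), the 2 that rose (MSMO1 and ACLY) and the 1 gene with an exact sterol regulatory element (SREBF2). The sequences are the 250 bases before the annotated start, 5′ to 3′ on the gene's strand, from RefSeq on GRCh38.p14, and 28 of the 32 genes had an entry. Coordinates are chr7:92134478-92134727 on the minus strand for CYP51A1, chr4:110198616-110198865 on the minus strand for ELOVL6, chr4:165327419-165327668 on the plus strand for MSMO1, chr17:41919023-41919272 on the minus strand for ACLY (the first of 2 entries) and chr22:41832855-41833104 on the plus strand for SREBF2. Capitals mark the exact sterol regulatory element of the textbooks and the motif CCAAT, each searched on both strands. The element is the first run of capitals in SREBF2, and CCAAT on the other strand reads ATTGG.
CYP51A1: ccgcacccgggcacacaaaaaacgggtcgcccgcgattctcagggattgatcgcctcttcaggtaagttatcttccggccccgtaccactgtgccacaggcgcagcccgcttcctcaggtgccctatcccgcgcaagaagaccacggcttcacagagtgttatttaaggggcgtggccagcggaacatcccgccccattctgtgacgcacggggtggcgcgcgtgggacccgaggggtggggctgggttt
ELOVL6: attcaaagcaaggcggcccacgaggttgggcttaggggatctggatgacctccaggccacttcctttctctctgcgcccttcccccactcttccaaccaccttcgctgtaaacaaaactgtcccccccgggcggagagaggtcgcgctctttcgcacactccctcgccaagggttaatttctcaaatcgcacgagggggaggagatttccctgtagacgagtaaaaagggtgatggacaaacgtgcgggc
MSMO1: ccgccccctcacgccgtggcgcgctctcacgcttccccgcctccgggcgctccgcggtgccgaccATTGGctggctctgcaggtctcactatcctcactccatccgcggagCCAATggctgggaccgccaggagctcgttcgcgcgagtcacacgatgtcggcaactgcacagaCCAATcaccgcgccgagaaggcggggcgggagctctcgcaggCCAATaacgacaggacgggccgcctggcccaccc
ACLY: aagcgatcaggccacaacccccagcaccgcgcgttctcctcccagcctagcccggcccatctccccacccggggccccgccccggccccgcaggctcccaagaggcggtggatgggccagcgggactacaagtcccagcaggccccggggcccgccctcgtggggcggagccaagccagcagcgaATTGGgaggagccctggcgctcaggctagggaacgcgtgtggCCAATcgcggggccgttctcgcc
SREBF2: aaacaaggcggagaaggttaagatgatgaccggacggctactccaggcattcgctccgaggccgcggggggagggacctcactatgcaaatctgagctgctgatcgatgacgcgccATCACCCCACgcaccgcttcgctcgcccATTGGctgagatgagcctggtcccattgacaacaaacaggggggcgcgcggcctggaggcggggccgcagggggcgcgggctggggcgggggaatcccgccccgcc
In these windows CYP51A1 and ELOVL6 had 0 matches, MSMO1 had 4 CCAAT matches, ACLY had 2, and SREBF2 had 1 sterol regulatory element and 1 CCAAT match. These letters are those bound by NF-Y, a factor known to act with SREBP. The CCAAT motif was found for 20 of the 28 genes (71.4%), against 37% of 27305 genes with an entry. The median log2 fold change of TNIP2 Pulldown over TNIP2 Input was -0.92 for those 20 and -1.09 for the other 8. The exact sterol element was found for 1 of 28, against 0.0439% of genes. The looser TCACNCCAC, which contains the matches of the exact element, was also found for 1 of 28, against 1.09%. The GC box GGGCGG was found for 27 of 28 (96.4%), against 46.2%, and the E-box CACGTG for 3 of 28 (10.7%), against 7.73%. Each background takes in every gene with an entry, expressed in these cells or not, while the 28 all passed the filter for testing. Shares were not compared with those of expressed genes alone, so they cannot be read as particular to these genes. A match is a description of the letters, and its absence applies to these windows alone.

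All 7 genes of the mevalonate steps fell in TNIP2 Pulldown against TNIP2 Input, with a median log2 fold change of -1.23. ACAT2, the cytosolic thiolase that joins acetyl-CoA units, had 443, 318 and 533 normalized counts in TNIP2 Pulldown, 1211, 1016 and 1636 in TNIP2 Input, 1157, 1152 and 1028 in Control Pulldown and 1313, 1208 and 1216 in Control Input. Its TNIP2 Pulldown libraries were all below the other 9, and the log2 fold change was -1.58 (SE 0.20, adjusted p = 9.7e-06). ACAT2 overlaps TCP1 tail to tail, and since the strand setting of the counting is not given here, reads of the overlap cannot be assigned with certainty. TCP1, a subunit of the cytosolic chaperonin, had 7949, 5521 and 8468 normalized counts in TNIP2 Pulldown, 5996, 5951 and 9173 in TNIP2 Input, 5808, 5560 and 6246 in Control Pulldown and 7191, 6325 and 6656 in Control Input. Its TNIP2 Pulldown and TNIP2 Input ranges overlapped, at 0.06 (SE 0.19, adjusted p = 0.81). HMGCS1, the synthase that makes HMG-CoA, had 555, 550 and 308 normalized counts in TNIP2 Pulldown, 970, 1068 and 427 in TNIP2 Input, 916, 931 and 1111 in Control Pulldown and 708, 820 and 923 in Control Input. TNIP2 Pulldown 3 and TNIP2 Input 3 were low for it and the ranges overlapped. The log2 fold change was -0.74 (SE 0.30, adjusted p = 0.045), and the call was lost in 12 of the 24 alternatives. It was -0.46 (adjusted p = 0.19) without TNIP2 Pulldown 3, -0.57 (adjusted p = 0.16) without TNIP2 Input 1 and -0.50 (adjusted p = 0.19) without TNIP2 Input 2. The ratio of Pulldown to Input in same-numbered libraries was 0.572, 0.515 and 0.721, and with a block within each construct HMGCS1 kept its call (adjusted p = 0.00031). Leaving out any of the 6 Control libraries kept it at -0.74 with adjusted p between 0.053 and 0.058.

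The kinases and the decarboxylase of the pathway all fell. MVK, mevalonate kinase, had 182, 151 and 265 normalized counts in TNIP2 Pulldown, 351, 374 and 511 in TNIP2 Input, 372, 338 and 394 in Control Pulldown and 405, 365 and 377 in Control Input. MVD, the decarboxylase that makes isopentenyl diphosphate, had 131, 114 and 228 normalized counts in TNIP2 Pulldown, 414, 421 and 496 in TNIP2 Input, 384, 381 and 419 in Control Pulldown and 442, 406 and 371 in Control Input. PMVK, phosphomevalonate kinase, had 35, 36 and 51 normalized counts in TNIP2 Pulldown, 211, 234 and 70 in TNIP2 Input, 163, 191 and 194 in Control Pulldown and 99, 112 and 147 in Control Input. In all 3 genes TNIP2 Pulldown lay wholly below TNIP2 Input, but for PMVK TNIP2 Input 3, at 70, was close to the Pulldown values. Log2 fold changes of -1.06 (SE 0.21, adjusted p = 0.00044) for MVK, -1.55 (SE 0.22, adjusted p = 2.4e-05) for MVD and -1.89 (SE 0.36, adjusted p = 0.00035) for PMVK were measured. The ratio of Pulldown to Input in same-numbered PMVK libraries was 0.166, 0.154 and 0.729.

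The enzymes that turn isopentenyl diphosphate into farnesyl diphosphate fell as well. IDI1, the isomerase of isopentenyl diphosphate, had 910, 939 and 663 normalized counts in TNIP2 Pulldown, 1970, 2003 and 1876 in TNIP2 Input, 1959, 2102 and 2073 in Control Pulldown and 2337, 2242 and 2225 in Control Input. FDPS, farnesyl diphosphate synthase, had 830, 691 and 848 normalized counts in TNIP2 Pulldown, 1703, 1840 and 1696 in TNIP2 Input, 1730, 1577 and 1450 in Control Pulldown and 1785, 1852 and 1761 in Control Input. For both genes all TNIP2 Pulldown values were below the other 9 libraries. IDI1 was at -1.23 (SE 0.15, adjusted p = 5.6e-06) and FDPS at -1.15 (SE 0.14, adjusted p = 5.3e-06).

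Of the 11 genes between squalene and cholesterol, 9 fell, 1 rose and 1 did not pass, with a median log2 fold change of -0.97. CYP51A1, the lanosterol demethylase, had the largest fall of the 32 genes. It had 843, 481 and 567 normalized counts in TNIP2 Pulldown, 3611, 2915 and 3333 in TNIP2 Input, 3706, 3342 and 3409 in Control Pulldown and 4500, 3610 and 3179 in Control Input. The highest TNIP2 Pulldown value was far below the lowest of the other 9 libraries, and the 5.34-fold fall was -2.42 (SE 0.20, adjusted p = 1.6e-07) on the log2 scale. Per length, CYP51A1 averaged 16.9 ± 5.06 FPKM in TNIP2 Pulldown, against 87.8 ± 9.36 FPKM in TNIP2 Input (SD, n = 3 each). By mean FPKM it ranked 15 of the 32 genes in TNIP2 Pulldown and 5 in TNIP2 Input.

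TM7SF2 and MSMO1, which act after CYP51A1, went opposite ways in the main fit. TM7SF2, a sterol reductase that acts on its product, had 86, 69 and 115 normalized counts in TNIP2 Pulldown, 413, 365 and 410 in TNIP2 Input, 372, 343 and 134 in Control Pulldown and 261, 399 and 322 in Control Input. Control Pulldown 3 was low for it, while TNIP2 Pulldown was below all other libraries. The log2 fold change was -2.15 (SE 0.32, adjusted p = 4.2e-05). MSMO1, the methyl oxidase that removes the next methyl groups, had 2445, 1838 and 1326 normalized counts in TNIP2 Pulldown, 1348, 1152 and 1299 in TNIP2 Input, 1423, 1274 and 1253 in Control Pulldown and 1758, 1468 and 1284 in Control Input. In TNIP2 Pulldown libraries 1 and 2 were above all others and library 3, at 1326, fell among the Input values. The log2 fold change was 0.52 (SE 0.20, adjusted p = 0.034), and the call was lost in 8 of the 24 alternatives, among them quantile normalization (0.14, adjusted p = 0.47) and voom (0.09, adjusted p = 0.64). Centring on ribosomal protein genes put MSMO1 at -0.01 (adjusted p = 0.96), where the median of all genes was -0.53. It was 0.30 (adjusted p = 0.17) without TNIP2 Pulldown 1, 0.51 (adjusted p = 0.071) without TNIP2 Pulldown 2, 0.57 (adjusted p = 0.051) without TNIP2 Input 1 and 0.45 (adjusted p = 0.10) without TNIP2 Input 2.

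SQLE, the epoxidase that first oxygenates squalene, had 1526, 905 and 597 normalized counts in TNIP2 Pulldown, 2879, 2519 and 1911 in TNIP2 Input, 3070, 2745 and 2611 in Control Pulldown and 3230, 2729 and 2354 in Control Input. FDFT1, the synthase that makes squalene, had 840, 689 and 640 normalized counts in TNIP2 Pulldown, 1169, 1177 and 911 in TNIP2 Input, 997, 1080 and 1200 in Control Pulldown and 1301, 1168 and 1226 in Control Input. LSS, which closes the sterol rings, had 371, 313 and 484 normalized counts in TNIP2 Pulldown, 765, 897 and 730 in TNIP2 Input, 650, 673 and 677 in Control Pulldown and 642, 802 and 710 in Control Input. All 3 had TNIP2 Pulldown wholly below TNIP2 Input, and SQLE varied most within TNIP2 Pulldown. SQLE was at -1.36 (SE 0.26, adjusted p = 0.00048), FDFT1 at -0.59 (SE 0.16, adjusted p = 0.005) and LSS at -1.05 (SE 0.17, adjusted p = 0.0001).

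The late sterol enzymes fell too. EBP, the sterol isomerase, had 783, 488 and 558 normalized counts in TNIP2 Pulldown, 1220, 1026 and 1284 in TNIP2 Input, 1398, 1184 and 1114 in Control Pulldown and 1422, 1237 and 1088 in Control Input. SC5D, the desaturase that follows it, had 743, 712 and 505 normalized counts in TNIP2 Pulldown, 1489, 1177 and 1173 in TNIP2 Input, 1346, 1458 and 932 in Control Pulldown and 1242, 1182 and 1200 in Control Input. DHCR7, the reductase of the last step, had 742, 596 and 1048 normalized counts in TNIP2 Pulldown, 1437, 1104 and 1003 in TNIP2 Input, 1389, 1099 and 1010 in Control Pulldown and 1355, 1183 and 977 in Control Input. EBP and SC5D separated the TNIP2 groups, and DHCR7 did not, because TNIP2 Pulldown 3, at 1048, exceeded TNIP2 Input 3. The log2 fold changes were -0.97 (SE 0.19, adjusted p = 0.0004) for EBP, -0.98 (SE 0.19, adjusted p = 0.00052) for SC5D and -0.59 (SE 0.22, adjusted p = 0.029) for DHCR7. The DHCR7 call was lost in 4 alternatives, among them at -0.40 (adjusted p = 0.14) without TNIP2 Pulldown 2, at -0.56 (adjusted p = 0.071) without TNIP2 Pulldown 1 and at -0.44 (adjusted p = 0.13) without TNIP2 Input 1.

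NSDHL, the dehydrogenase that acts after MSMO1, had 195, 170 and 271 normalized counts in TNIP2 Pulldown, 429, 410 and 301 in TNIP2 Input, 304, 360 and 177 in Control Pulldown and 262, 359 and 320 in Control Input. Its TNIP2 Pulldown libraries were below those of TNIP2 Input and overlapped those of Control Pulldown through Control Pulldown 3, at 177. The log2 fold change was -0.85 (SE 0.26, adjusted p = 0.011), and -0.71 (adjusted p = 0.052) without TNIP2 Pulldown 2. HSD17B7, the ketoreductase of the same complex, had 309, 227 and 389 normalized counts in TNIP2 Pulldown, 256, 195 and 466 in TNIP2 Input, 338, 304 and 290 in Control Pulldown and 415, 294 and 282 in Control Input. All 4 groups overlapped, and it did not pass, at 0.08 (SE 0.28, adjusted p = 0.83). HSD17B7P2, a near-identical pseudogene that can share its reads, had 264, 220 and 366 normalized counts in TNIP2 Pulldown, 141, 125 and 289 in TNIP2 Input, 186, 175 and 157 in Control Pulldown and 185, 149 and 146 in Control Input. Its log2 fold change was 0.68 (SE 0.28, adjusted p = 0.045), and how the counting split reads between the pair is uncertain.

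**Figure D3:**
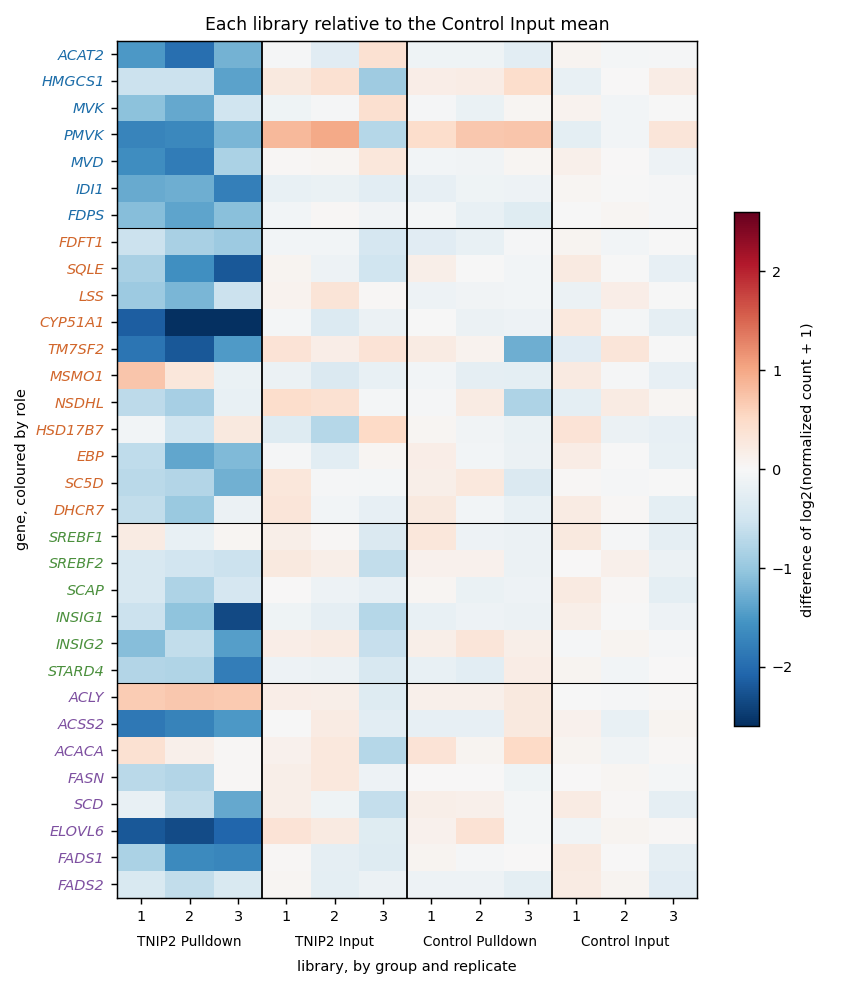
Difference of log2(normalized count + 1) from the Control Input mean for each of the 32 genes (rows, coloured by role) in each library (columns). The median over the genes was -0.70, -0.91 and -1.12 in the 3 TNIP2 Pulldown libraries and between -0.25 and 0.08 in the other 9.

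In the SREBP system, 4 of 6 genes fell in TNIP2 Pulldown against TNIP2 Input, with a median log2 fold change of -0.66. The genes for the transcription factors themselves did not pass. SREBF1, the driver of lipogenic genes, had 498, 374 and 442 normalized counts in TNIP2 Pulldown, 472, 439 and 327 in TNIP2 Input, 524, 389 and 384 in Control Pulldown and 511, 417 and 365 in Control Input. SREBF2, the driver of sterol genes, had 799, 751 and 722 normalized counts in TNIP2 Pulldown, 1262, 1183 and 682 in TNIP2 Input, 1148, 1142 and 957 in Control Pulldown and 1072, 1165 and 960 in Control Input. The SREBF1 values overlapped in all groups, and those of SREBF2 overlapped through TNIP2 Input 3, the lowest of all 12. SREBF1 was at 0.09 (SE 0.20, adjusted p = 0.71) and SREBF2 at -0.41 (SE 0.20, adjusted p = 0.093), and with the replicate number as a block SREBF2 passed (adjusted p = 0.047). Without TNIP2 Input 3 SREBF2 was at -0.69 (adjusted p = 0.0011). It also passed under quantile normalization (-0.58, adjusted p = 0.030), under ribosomal centring (-0.94, adjusted p = 0.0018) and in voom (-0.85, adjusted p = 0.0022).

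SCAP, the escort that carries SREBP to the Golgi, had 2020, 1545 and 1992 normalized counts in TNIP2 Pulldown, 2715, 2465 and 2321 in TNIP2 Input, 2795, 2413 and 2460 in Control Pulldown and 3182, 2765 and 2254 in Control Input. INSIG1, the sterol-responsive anchor that retains SCAP, had 5503, 3935 and 1598 normalized counts in TNIP2 Pulldown, 7530, 6865 and 4827 in TNIP2 Input, 7062, 7401 and 7276 in Control Pulldown and 8958, 8045 and 7411 in Control Input. INSIG2, its more constant relative, had 95, 132 and 76 normalized counts in TNIP2 Pulldown, 231, 237 and 135 in TNIP2 Input, 229, 256 and 227 in Control Pulldown and 202, 215 and 200 in Control Input. TNIP2 Pulldown lay below TNIP2 Input for SCAP and INSIG2, and for INSIG1 the ranges overlapped although each Pulldown library was below the Input library of the same number, with ratios of 0.731, 0.573 and 0.331. The log2 fold changes were -0.44 (SE 0.16, adjusted p = 0.03) for SCAP, -0.95 (SE 0.32, adjusted p = 0.02) for INSIG1 and -0.98 (SE 0.24, adjusted p = 0.0024) for INSIG2. The SCAP call was lost without TNIP2 Pulldown 2 (-0.31, adjusted p = 0.12), TNIP2 Input 1 (-0.38, adjusted p = 0.11) or TNIP2 Input 2 (-0.45, adjusted p = 0.060). The INSIG1 call was lost without TNIP2 Pulldown 3 (-0.44, adjusted p = 0.059), TNIP2 Input 1 (-0.82, adjusted p = 0.072) or TNIP2 Input 2 (-0.89, adjusted p = 0.056). STARD4, a carrier that moves sterol between membranes, had 303, 297 and 148 normalized counts in TNIP2 Pulldown, 467, 464 and 386 in TNIP2 Input, 447, 426 and 588 in Control Pulldown and 538, 491 and 514 in Control Input. All its TNIP2 Pulldown libraries were below the rest, at -0.88 (SE 0.24, adjusted p = 0.0052).

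The 8 fatty acid genes were the most divided, with 4 lower, 1 higher and 3 not called, and a median log2 fold change of -0.55. The genes that supply acetyl-CoA went opposite ways. ACLY, which cleaves citrate, had 4823, 4961 and 4889 normalized counts in TNIP2 Pulldown, 3476, 3387 and 2446 in TNIP2 Input, 3339, 3371 and 3649 in Control Pulldown and 3042, 3019 and 3144 in Control Input. ACSS2, which activates acetate, had 63, 68 and 81 normalized counts in TNIP2 Pulldown, 228, 266 and 190 in TNIP2 Input, 198, 197 and 273 in Control Pulldown and 250, 202 and 241 in Control Input. Every TNIP2 Pulldown library was above all others for ACLY and below all others for ACSS2. The log2 fold changes were 0.67 (SE 0.15, adjusted p = 0.0012) for ACLY and -1.67 (SE 0.20, adjusted p = 5.1e-06) for ACSS2. The ACLY call was lost under quantile normalization (0.03, adjusted p = 0.88), with libraries centred on ribosomal protein genes (0.14, adjusted p = 0.50) and in voom on recovered reads (0.24, adjusted p = 0.18).

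Of the enzymes that build palmitate, FASN fell and ACACA did not pass. ACACA, the carboxylase that makes malonyl-CoA, had 1235, 1027 and 958 normalized counts in TNIP2 Pulldown, 1015, 1135 and 566 in TNIP2 Input, 1203, 984 and 1341 in Control Pulldown and 989, 878 and 961 in Control Input. FASN, the synthase, had 1194, 1152 and 1982 normalized counts in TNIP2 Pulldown, 2155, 2348 and 1789 in TNIP2 Input, 1953, 1958 and 1803 in Control Pulldown and 1958, 2019 and 1878 in Control Input. ACACA overlapped in all groups, and for FASN TNIP2 Pulldown 3 lay among the TNIP2 Input values. ACACA was at 0.30 (SE 0.22, adjusted p = 0.26) and FASN at -0.58 (SE 0.19, adjusted p = 0.017). The FASN call was lost without TNIP2 Pulldown 1 (-0.46, adjusted p = 0.070), TNIP2 Pulldown 2 (-0.44, adjusted p = 0.076) or TNIP2 Input 2 (-0.49, adjusted p = 0.067).

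ELOVL6, the elongase that extends palmitate, showed a 4.88-fold fall. It had 70, 65 and 78 normalized counts in TNIP2 Pulldown, 421, 384 and 263 in TNIP2 Input, 352, 426 and 316 in Control Pulldown and 308, 343 and 333 in Control Input. The TNIP2 Pulldown values lay close together and far below the other 9 libraries, at -2.29 (SE 0.19, adjusted p = 2.3e-07) on the log2 scale. SCD, the desaturase that makes oleate, had 8362, 6147 and 3788 normalized counts in TNIP2 Pulldown, 10619, 8806 and 6195 in TNIP2 Input, 10668, 10427 and 9193 in Control Pulldown and 11078, 9683 and 8075 in Control Input. Its ranges overlapped, although each TNIP2 Pulldown library was below the TNIP2 Input library of the same number. SCD did not pass, at -0.52 (SE 0.25, adjusted p = 0.091). It passed under quantile normalization (-1.18, adjusted p = 0.00037), under ribosomal centring (-1.06, adjusted p = 0.00025) and in voom (-0.95, adjusted p = 0.0019). It also passed in separate fits: with the replicate number as a block (adjusted p = 0.016), without TNIP2 Input 3 (-0.74, adjusted p = 0.025), and without TNIP2 Pulldown 1 (-0.79, adjusted p = 0.015).

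FADS1 and FADS2, the neighbouring genes of the polyunsaturated fatty acid desaturases, differed in their calls. FADS1 had 1376, 773 and 748 normalized counts in TNIP2 Pulldown, 2475, 2061 and 1913 in TNIP2 Input, 2549, 2358 and 2432 in Control Pulldown and 2827, 2446 and 2051 in Control Input. FADS2 had 797, 672 and 799 normalized counts in TNIP2 Pulldown, 1091, 884 and 946 in TNIP2 Input, 954, 960 and 879 in Control Pulldown and 1223, 1108 and 854 in Control Input. For both genes TNIP2 Pulldown lay wholly below TNIP2 Input. The log2 fold changes were -1.20 (SE 0.21, adjusted p = 0.0002) for FADS1 and -0.36 (SE 0.16, adjusted p = 0.064) for FADS2, and FADS2 passed with a block within each construct (adjusted p = 0.023) and without TNIP2 Pulldown 3 (-0.41, adjusted p = 0.047). FADS2 also passed under quantile normalization (-0.52, adjusted p = 0.010), under ribosomal centring (-0.90, adjusted p = 0.0026) and in voom (-0.80, adjusted p = 0.00060). The difference between the 2 genes was not tested.

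**Figure D4:**
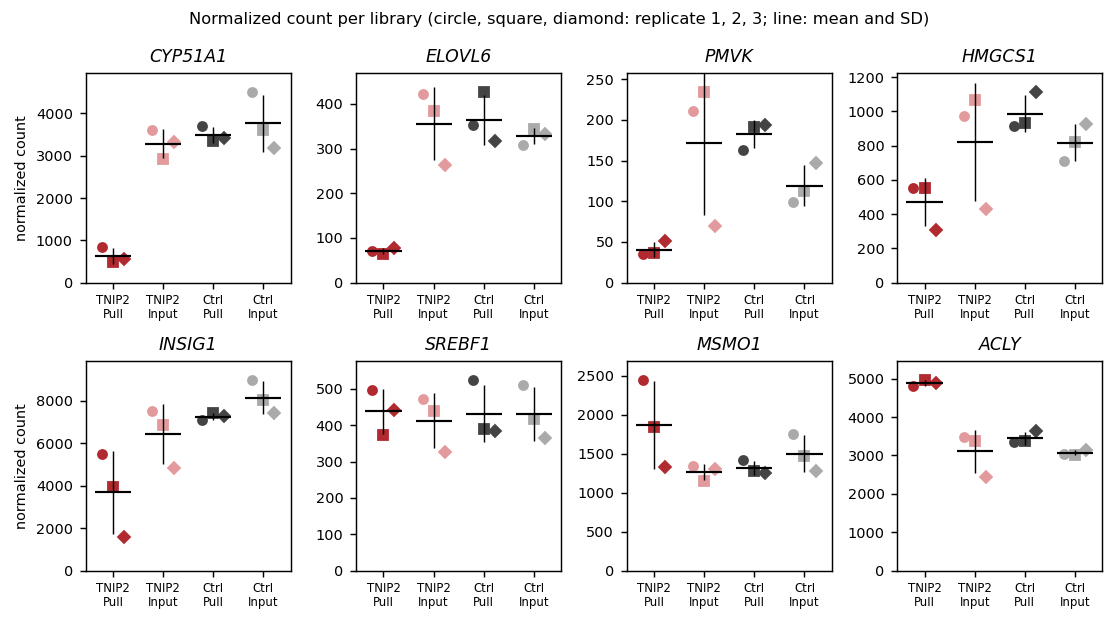
Normalized count per library for selected genes, 1 panel a gene on its own linear axis from 0, with the mean and SD of each group of 3. CYP51A1 and ELOVL6 sit lowest in TNIP2 Pulldown, at 481 to 843 and 65 to 78, and ACLY sits highest there, at 4823 to 4961.

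Set directly against Control Pulldown, TNIP2 Pulldown held less of 24 genes and more of 1, with 7 not called. This comparison shares its TNIP2 Pulldown libraries with the one above, so it is no separate evidence about them. Of all genes tested 28.7% were called lower and 30.6% higher. The median log2 fold change was -0.97, against 0.03 for all genes. A called fall of 2-fold or more was found for 16 of the 32, against 17.2% of all genes. TNIP2 Pulldown lay below all Control Pulldown libraries for 24, against 29.5%, and above them for 1, against 31.5%. By role, 7 of 7 mevalonate genes, 8 of 11 squalene-to-cholesterol genes, 5 of 6 SREBP-system genes and 4 of 8 fatty acid genes were lower.

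The 3 largest falls against Control Pulldown were CYP51A1 at -2.50 (SE 0.20, adjusted p = 1e-07), ELOVL6 at -2.34 (SE 0.19, adjusted p = 1.7e-07) and PMVK at -2.16 (SE 0.36, adjusted p = 0.00011). ACLY was the gene called higher, at 0.50 (SE 0.15, adjusted p = 0.0086), although it was at -0.15 (adjusted p = 0.41) under quantile normalization. Some genes stood on different sides of the threshold in the 2 comparisons. SREBF2 at -0.51 (SE 0.20, adjusted p = 0.04) and SCD at -0.80 (SE 0.25, adjusted p = 0.014) passed here. MSMO1 at 0.46 (SE 0.20, adjusted p = 0.055), NSDHL at -0.37 (SE 0.26, adjusted p = 0.23) and FASN at -0.45 (SE 0.19, adjusted p = 0.054) did not. HMGCS1, at -1.11 (SE 0.30, adjusted p = 0.0052), had all its TNIP2 Pulldown libraries below those of Control Pulldown. Without Control Pulldown 3, NSDHL was at -0.67 (adjusted p = 0.030), and without TNIP2 Pulldown 3, FASN was at -0.70 (adjusted p = 0.00047) and MSMO1 at 0.69 (adjusted p = 0.0024). SCD was lost without TNIP2 Pulldown 3 (-0.49, adjusted p = 0.060). SREBF2 was lost in 8 alternatives, between -0.55 and -0.47 without any 1 of the 3 TNIP2 Pulldown libraries, Control Pulldown 1 or Control Pulldown 2 (adjusted p 0.057 to 0.11), and at -0.51 (adjusted p = 0.052) without Control Input 1 or Control Input 2.
The SCAP call was lost without TNIP2 Pulldown 2 (-0.35, adjusted p = 0.088) or Control Pulldown 1 (-0.41, adjusted p = 0.084). The DHCR7 call was lost without TNIP2 Pulldown 1 (-0.55, adjusted p = 0.077), TNIP2 Pulldown 2 (-0.39, adjusted p = 0.15), Control Pulldown 1 (-0.44, adjusted p = 0.13) or Control Pulldown 2 (-0.61, adjusted p = 0.056).

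The extracts of the 2 constructs were then set against each other. Between TNIP2 Input and Control Input 0 of the 32 were called, against 0.00684% of all genes tested (1 gene, TNIP2). None had an unadjusted p under 0.05 in limma's test. The median log2 fold change was -0.08, with a range of -0.37 to 0.36. TNIP2 Input lay below all Control Input libraries for 2 genes and above them for 0, against 5.32% and 3.62% of all genes.

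The difference of the 2 constructs' Pulldown-over-Input changes was tested as an interaction. Of all genes tested 42.8% were called. The difference was lower for the TNIP2 fragment for 16 of the 32 genes and higher for 0, against 20.2% and 22.6% of all genes tested, and the median difference was -0.95, against 0.02 for all genes. By role the 16 were 6 of 7 mevalonate genes, 6 of 11 squalene-to-cholesterol genes, INSIG2 of the SREBP system, and ACSS2, ELOVL6 and FADS1 of the fatty acid genes. The largest were PMVK at -2.52 (SE 0.50, adjusted p = 0.0011), ELOVL6 at -2.43 (SE 0.27, adjusted p = 1.2e-05) and CYP51A1 at -2.32 (SE 0.28, adjusted p = 1.9e-05). The PMVK value joins a change of -1.89 for the TNIP2 fragment and an uncalled 0.63 for the tag alone. For that gene all Control Pulldown libraries lay above all Control Input libraries. All 16 calls held in every alternative run. HMGCS1, the mevalonate gene that missed, was at -1.02 (SE 0.42, adjusted p = 0.066), and at -1.43 (adjusted p = 0.0019) without TNIP2 Input 3. MSMO1 at 0.70 (SE 0.28, adjusted p = 0.054) and ACLY at 0.50 (SE 0.21, adjusted p = 0.064) also missed. With a block within each construct MSMO1 (adjusted p = 0.018) and ACLY (adjusted p = 0.039) passed as higher, and HMGCS1 (adjusted p = 0.00066), STARD4 (adjusted p = 0.015), SCD (adjusted p = 0.016) and INSIG1 (adjusted p = 0.024) as lower. Leaving out 1 library brought other genes past the threshold: SCD (-0.87), STARD4 (-0.96) and INSIG1 (-1.16) without TNIP2 Pulldown 1, STARD4 (-0.95) without TNIP2 Pulldown 2, DHCR7 (-0.80), FASN (-0.79), MSMO1 (0.93) and ACLY (0.50) without TNIP2 Pulldown 3, SREBF2 (-0.71) and FDFT1 (-0.53) without TNIP2 Input 3, NSDHL (-0.94) without Control Pulldown 3 and MSMO1 (0.81) without Control Input 3.

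Falls were found both among genes for membrane proteins of the endoplasmic reticulum and among genes for cytosolic or peroxisomal proteins. Of the 20 membrane genes, 14 were lower and 1 higher in TNIP2 Pulldown against TNIP2 Input, with a median log2 fold change of -0.90. Of the other 12, 10 were lower and 1 higher, with a median of -1.11. The shares over all genes tested were 28.3% lower and 29.8% higher. The difference between these lists was not tested.

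Shorter transcripts tended to have the lower values, among these genes and, more weakly, among all genes. Exonic length was recovered from the ratio of the deposited tables. Across the 32 genes its logarithm had a Pearson coefficient of 0.379 and a Spearman coefficient of 0.408 with the log2 fold change of TNIP2 Pulldown over TNIP2 Input, and across all 14627 genes 0.209 and 0.222. The genes share the same libraries and are not independent, so these are descriptions. Below 2000 bases 7 of 8 genes were lower, with a median of -1.35, against 37.3% of all genes of that length and a median of -0.28. Between 2000 and 4000 bases 10 of 12 were lower, with a median of -1.02, against 32% and -0.14. From 4000 bases 7 of 12 were lower, with a median of -0.55, against 18.7% and 0.27. In each length class the share of lower genes exceeded that of all genes of the class. The part of length in the results was not tested further. CYP51A1 at 3308 bases and ELOVL6 at 3413 bases are of middle length, and ACLY at 4380 bases is longer than MSMO1 at 2242 bases.

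**Figure D5:**
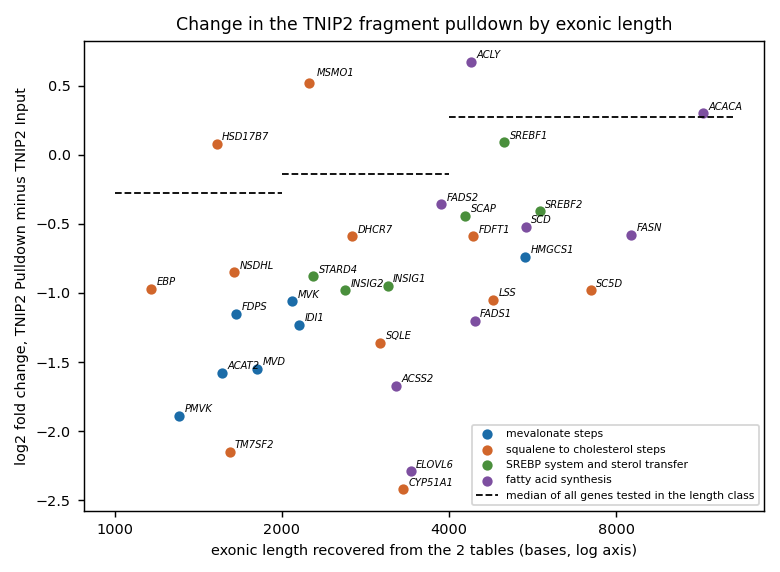
Log2 fold change of TNIP2 Pulldown over TNIP2 Input (vertical axis) against recovered exonic length in bases (log axis) for the 32 genes, coloured by role. Medians are -1.35 below 2000 bases, -1.02 between 2000 and 4000 bases and -0.55 from 4000 bases.

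Per length, the order of the genes changed between fractions. INSIG1 averaged 105 ± 56.1 FPKM in TNIP2 Pulldown, against 183 ± 40.2 FPKM in TNIP2 Input, and was first in both groups by mean. ACLY ranked 2 in TNIP2 Pulldown at 98.8 ± 1.39 FPKM and 9 in TNIP2 Input at 62.6 ± 11.5 FPKM. MSMO1 had 73.8 ± 22.1 FPKM in TNIP2 Pulldown and 50 ± 4.02 FPKM in TNIP2 Input. In TNIP2 Pulldown, INSIG1, ACLY and SCD (98 ± 36.8 FPKM) did not differ beyond their spread. ELOVL6 was last in TNIP2 Pulldown at 1.84 ± 0.173 FPKM and had 9.22 ± 2.13 FPKM in TNIP2 Input. ACSS2, next to last in TNIP2 Pulldown at 1.95 ± 0.252 FPKM, did not differ from ELOVL6 there beyond their spread (SD, n = 3 for each value).

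Other genes of the same pathways were read from fixed lists, 86 of 95 of them tested. In TNIP2 Pulldown against TNIP2 Input 42 were lower (48.8%) and 16 higher (18.6%), with a median log2 fold change of -0.49. The shares over all genes tested were 28.3% lower and 29.8% higher, and they apply to each list. Among 11 SREBP proteases and genes of sterol-regulated degradation, 4 were lower and 2 higher, with a median of -0.35. MBTPS1, the first protease that cuts SREBP, had 7104, 10187 and 4242 normalized counts in TNIP2 Pulldown, against 1851, 1947 and 989 in TNIP2 Input. Its value of 2.14 (SE 0.31, adjusted p = 3.3e-05) ran opposite to most of the enzymes. ERLIN1, a scaffold protein of degradation at the endoplasmic reticulum, was at 1.19 (SE 0.20, adjusted p = 0.00014), and its partner ERLIN2 was at -1.28 (SE 0.23, adjusted p = 0.00027). RNF145, a sterol-responsive ubiquitin ligase, was at -1.08 (SE 0.19, adjusted p = 0.00023).

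Of 11 tested genes of the isoprenoid branches, 6 were lower and 2 higher, with a median of -0.50. For this and the next lists, the shares over all genes tested were again 28.3% lower and 29.8% higher. GGPS1, which makes geranylgeranyl diphosphate, was at -1.81 (SE 0.14, adjusted p = 1.2e-07), and COQ2 of ubiquinone synthesis at -1.68 (SE 0.16, adjusted p = 6.1e-07). RABGGTB, a subunit of the Rab prenyltransferase, was at 1.76 (SE 0.21, adjusted p = 5.3e-06), and NUS1 of dolichol synthesis at 0.78 (SE 0.28, adjusted p = 0.026). Of 4 thiolase and HMG-CoA relatives 3 were lower, with a median of -0.59, among them ACAA1 at -1.51 (SE 0.33, adjusted p = 0.0011) and ACAA2 at -0.67 (SE 0.14, adjusted p = 0.0010). Of 9 further sterol enzymes and binders 6 were lower and 1 higher, with a median of -1.09. CYB5B, a cytochrome b5, was at -1.78 (SE 0.16, adjusted p = 4.1e-07) and C14orf1, a scaffold of the demethylation complex, at -1.36 (SE 0.21, adjusted p = 5.5e-05). POR, which passes electrons to CYP51A1 and SQLE, was higher at 0.74 (SE 0.24, adjusted p = 0.015). Of 23 genes of fatty acid elongation, desaturation and activation 13 were lower and 1 higher, with a median of -0.59. ELOVL1, an elongase of very long chains, was at -2.09 (SE 0.20, adjusted p = 5.6e-07), and SLC25A1, the carrier that exports citrate for ACLY, at -1.66 (SE 0.15, adjusted p = 4e-07). OXSM, a mitochondrial fatty acid synthase, was the higher gene, at 1.24 (SE 0.22, adjusted p = 0.00021).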

How the data were processed

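RNA was sequenced in 12 libraries, 3 in each of 4 groups. Column letters gave the groups: C, I and P as in the labels, and F for the TNIP2 fragment by elimination. Per the labels, Input RNA was from 100 µl and Pulldown RNA from 90 µl. The submitters' processing notes name TopHat2 2.0.14, DESeq2 1.6.3 and hg19. Annotation, counter and strand setting were not given in the sources used here. By symbol, the authors deposited a normalized count table, handled here as a score because its values are rounded to whole numbers and its median-of-ratios factors are 1.00 to 1.01, and a table of FPKM values. Because the deposited values are normalized, no count model was the main test. Low FPKM values were whole multiples of a step, which gave reads per library (98.96% to 100% of low values whole within 0.1 reads) and exonic length.

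Values were taken as log2(normalized count + 1), a log2 scale that understates the change of low genes, from the counts the authors deposited. All 12 libraries were fitted together in limma 3.58.1 (R 4.3.3) with a mean per group, trend and 8 residual degrees of freedom, two-sided, and p-values were adjusted by Benjamini-Hochberg over 14627 genes. Of 25369 genes, 4492 were at 0 in every library. Scripts were tested on simulated data. Alternatives were other pseudocounts, filters, scalings, the FPKM table, voom on recovered reads, a replicate block and leaving out libraries. Not all of these are separate checks. For values over 100, the FPKM table was the count table times a constant per gene, to within 0.5329%. Leaving out a Control library cannot move a fold change against TNIP2 Input, only its SE and p-value. Same-numbered TNIP2 Pulldown and TNIP2 Input libraries deviated together from their group means (correlations 0.369, 0.458 and 0.497) and were taken as pairs. Same-numbered Control libraries correlated at only 0.0744 to 0.0774. The block within each construct nevertheless took same-numbered libraries of both constructs as pairs. The replicate block tied same-numbered libraries of all groups. Correlations between different numbers were not computed, so this check cannot show that the numbers pair the libraries. TNIP2 Pulldown 3 and TNIP2 Input 3 stood apart together, and in deviations from a group mean that alone can raise the other correlations. The pairing is thus an assumption, not given by the labels, and same-number ratios and block p-values rest on it. The block within each construct was chosen after seeing the data. The 32 genes and all lists were chosen with earlier results of these data known. Named genes are all 32, the 2 lowest and 2 highest called genes of each other list, TNIP2, and sequence neighbours of ACAT2 and HSD17B7. Promoters are from RefSeq, GRCh38.p14.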

Additional observations from a re-analysis of the deposited data

Results flagged for a closer look

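For 16 of the 32 genes the Pulldown-over-Input log2 change of the TNIP2 fragment differed from that of the tag alone in the interaction test (limma, adjusted p under 0.05 over all genes tested). The values are the TNIP2 fragment's change minus the tag's, and all were below 0. Among the mevalonate genes they were PMVK at -2.52, MVD at -1.51, ACAT2 at -1.41, IDI1 at -1.09, MVK at -1.01 and FDPS at -0.96. Between squalene and cholesterol they were CYP51A1 at -2.32, TM7SF2 at -1.83, SQLE at -1.38, SC5D at -1.0, LSS at -0.95 and EBP at -0.95. In the SREBP system INSIG2, the more constant of the pair of SCAP anchors, was at -1.18. Among the fatty acid genes they were ELOVL6 at -2.43, ACSS2 at -1.61 and FADS1 at -1.22. The tag's own change was not called for any of these genes, and its Pulldown libraries, though not its Input libraries, were the shallowest. For PMVK the tag's change was 0.63, opposite to the TNIP2 fragment's -1.89. Depth as a part of these differences was not tested.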

How the results depend on the processing

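Each group holds 3 libraries, and the third TNIP2 libraries stand apart. Whether depth limits precision was not tested. Without each library in turn, the genes called in TNIP2 Pulldown against TNIP2 Input were 20 to 26 lower and 1 to 2 higher, with a median of -1.02 to -0.82. Against Control Pulldown they were 21 to 25 lower and 1 to 2 higher, with a median of -1.05 to -0.81. For the interaction they were 16 to 19 lower and 0 to 2 higher, with a median of -0.98 to -0.82. The Control fractions and the extracts gave 0 calls throughout, with medians of -0.11 to 0.03 and -0.16 to 0.03.

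Under other scalings fewer of the 32 genes were called higher. Centring on ribosomal protein genes put the median of all genes at -0.53 (TNIP2 Pulldown against TNIP2 Input), -0.38 (against Control Pulldown) and -0.63 (interaction), and voom on recovered reads, scaled to library totals, put it at -0.44, -0.46 and -0.50 for the same 3 comparisons. Under centring, all genes were called 2248 higher and 6346 lower against TNIP2 Input, 2726 and 5687 against Control Pulldown and 1337 and 5288 in the interaction. Under voom they were 2889 higher and 6492 lower against TNIP2 Input, 2641 and 6304 against Control Pulldown and 1812 and 5251 in the interaction. The deposited scaling gave 4358 higher and 4145 lower against TNIP2 Input, 4481 and 4201 against Control Pulldown and 3301 and 2960 in the interaction. Against TNIP2 Input, 0 of the 32 were higher under quantile normalization, centring or voom, and 1 with only the libraries compared, where 19 were lower. With the replicate block 26 were lower, and 27 under quantile normalization, centring, voom and the block within each construct. MSMO1 was then -0.01 under centring. The median of the 32 was -1.49 under centring and -1.39 under voom, below that of all genes in both. Against Control Pulldown, 0 were higher under the same 3 settings, ACLY was -0.15 under quantile normalization, and the median was -1.11 (quantile), -1.37 (centring) and -1.43 (voom). The interaction gave 27 lower under centring and 27 under voom, with medians of -1.60 and -1.46. The median was 0.07 for the Control fractions and 0.17 for the extracts under centring. Without both TNIP2 libraries numbered 3, 2 genes were higher against Control Pulldown (median -0.81) and 2 in the interaction. A stricter filter gave 1 higher in the interaction.

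With the replicate block, 2 genes were higher against Control Pulldown (MSMO1 joined, adjusted p = 0.024) and 1 in the interaction. The block within each construct gave 2 higher in the interaction, and SCD, HMGCS1, STARD4 and INSIG1 lower. The cause of these moves was not tested. Of the called genes, 18 of 26 against TNIP2 Input, 20 of 25 against Control Pulldown and all 16 of the interaction kept their call in every alternative.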

Other observations

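Lipid genes outside synthesis of sterols and fatty acid chains were read from the same lists. Of 14 tested genes of glycerolipid synthesis, 9 were lower and 4 higher in TNIP2 Pulldown against TNIP2 Input, with a median log2 fold change of -0.95. That is 64.3% and 28.6%, against 28.3% and 29.8% of all genes tested. AGPAT1, an acyltransferase that makes phosphatidic acid, had 223, 175 and 197 normalized counts in TNIP2 Pulldown, against 860, 801 and 688 in TNIP2 Input, which was -1.98 on the log2 scale (SE 0.21, adjusted p = 2e-06 in limma). Its relative AGPAT2 was at -1.54 (SE 0.21, adjusted p = 2e-05). AGPAT5, another member of that family, had 10292, 11547 and 6406 normalized counts in TNIP2 Pulldown, against 1078, 961 and 1001 in TNIP2 Input, at 3.17 (SE 0.19, adjusted p = 1.5e-08). LPIN2, a phosphatidate phosphatase, was at 0.98 (SE 0.15, adjusted p = 6e-05).

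Of 14 tested genes of sterol transport, esterification and the LXR system, 1 was lower and 6 higher, with a median of 0.11. That is 7.14% and 42.9%, against 28.3% and 29.8% of all genes tested. ABCA1, which exports cholesterol from cells, had 332, 301 and 385 normalized counts in TNIP2 Pulldown, against 102, 84 and 163 in TNIP2 Input, at 1.59 (SE 0.25, adjusted p = 7.2e-05). MYLIP, a ubiquitin ligase that LXR induces, was at 2.33 (SE 0.21, adjusted p = 3.5e-07). STARD5, a sterol carrier, was the lower gene, at -1.0 (SE 0.22, adjusted p = 0.0013). Whether these lists differ from the 32 genes was not tested.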
